A study of Homo sapiens with 10 samples.

Results

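The genes for enzymes that place or remove marks on histones and DNA were taken from an RNA-seq count table of U266, a human cell line established from a multiple myeloma, the cancer of plasma cells. Members were chosen by name, as every gene whose symbol belongs to the KDM, KMT, SETD, EZH, DNMT, TET, PRMT, HDAC, KAT, SUV39H, EHMT, NSD or SIRT families, and this gave 85 of 60574 genes. Of these, 46 are writers, which add methyl or acetyl groups, and 39 are erasers, which take them off. The cells of all 10 libraries carried dCas9-VPR, a Cas9 that binds DNA without cutting it, fused to a transcriptional activator, and had been kept in blasticidin and puromycin, which kill cells that did not take up the lentiviral constructs. They differed in the guide RNA. In 5 libraries it pointed to the start site of EFNB2, the gene for the membrane ligand ephrin-B2, and in 5 it was scrambled and had no target. Libraries of each guide are lettered A to E in the labels, so a library is called EFNB2 A or control A here. The labels do not say whether the libraries of a guide come from separate transductions or cultures. P-values therefore measure the spread between these libraries, which may be technical, and the guide and the transduced cell population that carried it cannot be told apart.

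Histone methyltransferases and demethylases add and remove methyl groups on lysines and arginines of the histone tails, and the lysine that is modified sets whether the mark goes with active or silent genes. Acetyltransferases and deacetylases do the same with acetyl groups, which loosen the contact of histones with DNA. DNA methyltransferases methylate cytosine, and the TET enzymes oxidise methylcytosine as a step to its removal. In multiple myeloma several of these enzymes are altered or are drug targets, among them EZH2, NSD2, KDM6A and the deacetylases. Classes follow the enzymes' usual names, and some members, such as several SETD and SIRT proteins, act mainly on proteins other than histones. The counts measure RNA, not the amount or activity of any enzyme, and in bulk RNA fewer cells of a type and less RNA per cell cannot be told apart.

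Total counts per library ran from 47268072 to 56513548. EFNB2 itself was 9.96-fold higher with its guide, at 1.21 ± 0.198 CPM (counts scaled to a common library total, here and below after TMM scaling of library sizes, mean ± SD, n = 5) against 0.119 ± 0.0509 CPM (edgeR adjusted p = 4.68e-08). Both A libraries stood apart. This was seen on principal component 2 of log2 CPM, an axis of spread between all libraries. There EFNB2 A lay at 21.2, against -8.04 to -0.797 in the other EFNB2 libraries. Control A lay at -25.9, against -6.24 to 12.6 in the other control libraries. Measured against the other 4 libraries of its guide, EFNB2 A lay toward the control level in 62 of the 83 members tested (74.7%, against 67.8% of all tested genes). Control A lay toward the EFNB2 level in 56 of 83 (67.5%, against 67.6% of all tested genes). These shares were not worked out for the B to E libraries. Spread alone can lean a library this way, because the same 4 libraries also set the guide difference. The shares therefore do not show how far the A libraries stand apart. Members whose call changed without both A libraries are named below. Of 8 plasma cell identity genes, CD38, SLAMF7 and XBP1 rose, by 2.17, 0.57 and 0.20 on the log2 scale, MZB1, SDC1 and TNFRSF17 fell by 0.66, 0.51 and 0.38, and IRF4 and PRDM1 did not pass. The summed levels of markers of other cells were low. T cell markers came to 3.56 to 4.23 CPM in EFNB2 libraries and 3.86 to 5.67 in control libraries, myeloid markers to 2.48 to 3.4 and 2.08 to 2.63, epithelial markers to 1.78 to 2.45 and 1.74 to 2.45, and erythroid markers to 0.237 to 0.376 and 0.164 to 0.275. Fibroblast markers came to 22.8 to 27.1 and 16.3 to 21.9 CPM, nearly all of it COL1A1, while COL1A2, DCN, PDGFRB and LUM lay near 0.

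Of the 85 members, 83 had enough counts to be tested, and DNMT3L and PRMT8 did not, with 5 counts and 1 count over all 10 libraries. At an adjusted p under 0.05, 24 members were higher with the EFNB2 guide and 19 were lower, 43 in all or 51.8%. Of all 17834 genes tested, 45.4% passed, 22.8% higher and 22.6% lower. The members' share was thus a little above that of all genes. Most members are well expressed, and among all tested genes whose mean log2 CPM was 1 or more 54.4% passed. The changes were small. The median log2 fold change of the 83 members was 0.01, and the median of its absolute value was 0.104, against 0.161 over all tested genes. A change of at least 1.2-fold that passed was seen in 12 of 83 members (14.5%), against 23% of all tested genes. These were KMT5A, SETD1B, EZH2, DNMT3B, KDM2B, SIRT7, SUV39H1 and KDM6B, which rose, and KDM5B, HDAC9, PRMT3 and KDM4D, which fell. KMT5A and KDM5B passed with at least 1.5-fold, against 9.37% of all tested genes. In 28 of 83 members (33.7%) the 5 EFNB2 libraries and the 5 control libraries did not overlap, against 30.3% of all tested genes. Among the 12252 tested genes with a mean log2 CPM of 1 or more, the share without overlap was 36.8%, above that of the members. In these genes the median absolute log2 fold change was 0.125. A change of at least 1.2-fold passed in 21.8% of them, and 1 of at least 1.5-fold in 618.

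Writers and erasers did not part as classes when members were counted. Of 44 writers tested, 14 rose and 8 fell, and of 39 erasers 10 rose and 11 fell. The median log2 fold change was 0.02 over writers and 0.01 over erasers. The difference between these counts was not tested. The count of writers that fell depended on the libraries used. It was 14 without control A, 5 without EFNB2 E or control C, 4 without EFNB2 B, EFNB2 C, control B or control D, and 3 without EFNB2 D or control E. The count of all members that fell was 12 without EFNB2 C or control E. Without both A libraries 30 members rose and 26 fell of 83 (67.5%), against 55.2% of the 17860 genes tested in that fit. The share among genes of like level was not worked out for that fit. With all libraries the median log2 CPM was 5.81 over members and 3.58 over all tested genes, so these 2 shares are not level-matched. EZH1, HDAC7, KAT2A, KAT8, KDM1A and SETD4 rose in that fit but did not pass with all libraries. KAT6A, KDM3B, KMT2A, KMT2C, KMT2D, KMT5B, SETD2 and SETD3 fell in that fit but did not pass with all libraries. PRMT9 no longer passed in it. With library totals alone in place of TMM scaling, 28 members rose and 15 fell, and on the deposited normalized values 19 rose and 23 fell.

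**Figure D1:**
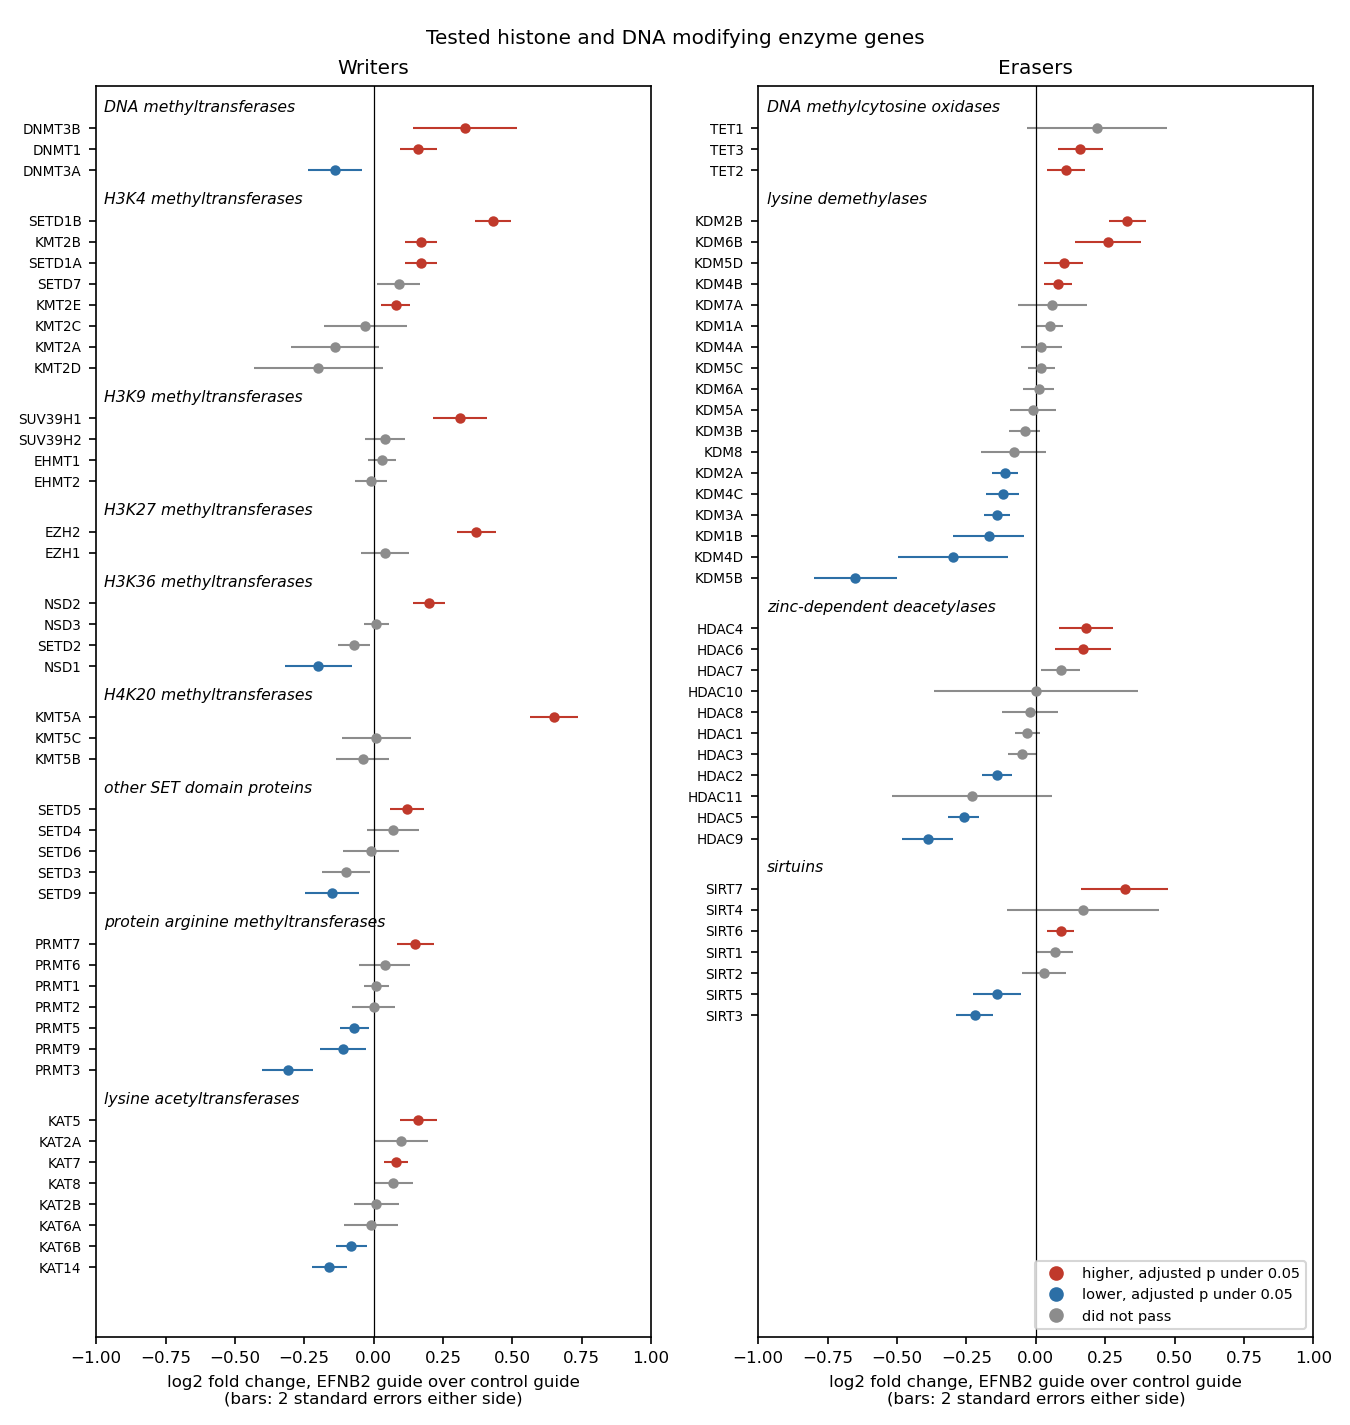
Log2 fold change of each of the 83 tested members, EFNB2 guide over control guide, writers on the left and erasers on the right, grouped by class. Points are the estimates of the edgeR fit with bars of 2 standard errors either side, red for the 24 members that rose, blue for the 19 that fell and grey for the 40 that did not pass. Most points lie close to 0, with KMT5A at 0.65 and KDM5B at -0.65 as the ends of the range.

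To show what stands ahead of these genes, promoter windows were read from RefSeq (GRCh38.p14), which held 78 of the 85 members. The window ran from 250 bases before an annotated start to 50 bases after it, with the first listed start taken for each member. For some members, such as HDAC9, DNMT3B and HDAC4, that start lies inside the gene. The shares below were counted over both kinds of start. In the 6 windows printed below it is the outer start of the gene. E2F factors, which drive genes of the cell cycle, bind letters such as TTTCCCGC, TTTCGCGC, TTTGCCGC and TTTGGCGC, and these were searched for on both strands. At least 1 match was found in 3.31% of all 35116 windows and in 6 of the 78 member windows (7.69%). Of the 22 members that rose and had a window, 4 held a match (18.2%), namely DNMT1, EZH2, NSD2 and SIRT6. Of the 18 that fell and had a window, KDM1B held one, and of the 37 that did not pass, EZH1 did. A match is a description of the letters and not evidence of binding. The windows of the 4 risen members with a match are printed because they show where the match lies, and those of KMT5A and KDM5B because these 2 members changed most. Each runs 5′ to 3′ on the gene's strand from 250 bases before the start to 30 bases after it, and capitals mark the E2F letters.
DNMT1: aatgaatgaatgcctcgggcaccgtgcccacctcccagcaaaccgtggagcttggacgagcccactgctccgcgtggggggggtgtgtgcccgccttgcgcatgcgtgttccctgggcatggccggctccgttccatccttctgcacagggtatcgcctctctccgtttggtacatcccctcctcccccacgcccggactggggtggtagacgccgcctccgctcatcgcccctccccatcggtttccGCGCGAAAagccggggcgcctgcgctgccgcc
EZH2: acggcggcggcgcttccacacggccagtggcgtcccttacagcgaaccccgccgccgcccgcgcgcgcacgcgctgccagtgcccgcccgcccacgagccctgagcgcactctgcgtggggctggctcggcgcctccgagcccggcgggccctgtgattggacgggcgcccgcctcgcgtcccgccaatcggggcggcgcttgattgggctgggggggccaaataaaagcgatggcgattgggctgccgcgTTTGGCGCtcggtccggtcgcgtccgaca
NSD2: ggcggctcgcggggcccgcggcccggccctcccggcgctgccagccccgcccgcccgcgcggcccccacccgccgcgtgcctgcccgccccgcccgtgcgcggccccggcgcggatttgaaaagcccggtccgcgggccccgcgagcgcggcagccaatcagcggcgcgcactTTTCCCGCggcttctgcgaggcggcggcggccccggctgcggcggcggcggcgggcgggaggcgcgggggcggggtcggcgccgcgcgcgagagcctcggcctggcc
SIRT6: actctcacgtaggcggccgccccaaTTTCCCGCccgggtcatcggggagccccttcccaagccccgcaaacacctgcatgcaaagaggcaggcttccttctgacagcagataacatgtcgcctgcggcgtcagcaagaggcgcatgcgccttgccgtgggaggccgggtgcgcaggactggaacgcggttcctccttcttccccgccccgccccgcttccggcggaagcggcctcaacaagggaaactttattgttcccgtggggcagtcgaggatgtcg
KMT5A: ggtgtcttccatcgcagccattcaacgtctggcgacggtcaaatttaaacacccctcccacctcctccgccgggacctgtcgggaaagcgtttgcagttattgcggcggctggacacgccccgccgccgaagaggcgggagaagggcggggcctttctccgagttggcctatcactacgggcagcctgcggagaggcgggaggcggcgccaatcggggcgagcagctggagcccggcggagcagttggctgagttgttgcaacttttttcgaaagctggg
KDM5B: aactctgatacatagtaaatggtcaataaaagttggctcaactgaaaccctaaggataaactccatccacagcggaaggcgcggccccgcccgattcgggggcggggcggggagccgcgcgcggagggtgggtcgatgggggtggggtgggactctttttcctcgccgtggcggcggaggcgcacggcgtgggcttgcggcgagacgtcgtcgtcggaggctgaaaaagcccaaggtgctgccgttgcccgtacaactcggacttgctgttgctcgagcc
In that order the windows lie at chr19:10194924-10195203 (minus strand), chr7:148884262-148884541 (minus), chr4:1871143-1871422 (plus), chr19:4182534-4182813 (minus), chr12:123383882-123384161 (plus) and chr1:202808392-202808671 (minus). In DNMT1 the match, read on the opposite strand, begins 2 bases before the annotated start. In EZH2 the match begins 1 base after the annotated start. The KMT5A and KDM5B windows hold none of these letters. The CHR letters TTTGAA, found ahead of many mitotic genes, were in 12.8% of member windows and 15.2% of all windows. They were in 18.2% of windows of risen members, 16.7% of fallen ones and 5.41% of those that did not pass. The NF-Y letters CCAAT were in 32.1% of member windows and 34.6% of all windows, with 40.9%, 27.8% and 27% in the same order.

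The DNA methyltransferases went different ways, with 2 of 3 tested members higher and 1 lower, against 22.8% and 22.6% of all tested genes. DNMT1 (chr19:10133346-10194953), the enzyme that copies methylation onto the new DNA strand after replication, was the member with the highest level per kilobase of exon, at 72.8 CPM per kb with the EFNB2 guide. Its level was 679, 722, 728, 713 and 726 CPM in EFNB2 libraries A to E and 689, 646, 602, 622 and 635 CPM in control libraries A to E. The groups overlapped only through the A libraries, and the rise was 0.16 on the log2 scale (SE 0.03, edgeR adjusted p = 0.00112). DNMT3B (chr20:32762385-32809356), which methylates new sites, was far less abundant, at 3.56 CPM per kb of exon with the EFNB2 guide. It stood at 14.1, 17.7, 16.6, 16.8 and 17.1 CPM with the EFNB2 guide and at 17.1, 11.4, 12.2, 12.4 and 12.5 CPM with the control guide. Its log2 fold change was 0.33 (SE 0.09, edgeR adjusted p = 0.00983) and 0.49 without both A libraries. DNMT3A (chr2:25227874-25342590), the other enzyme for new sites, moved the opposite way. Its level was 53.4, 47.3, 45.9, 46.7 and 47.1 CPM with the EFNB2 guide and 47, 55.3, 53.3, 54.4 and 54.4 CPM with the control guide. In all 3 genes the A library of each guide lay toward or at the level of the other guide. DNMT3A fell by 0.14 on the log2 scale (SE 0.05, edgeR adjusted p = 0.0312) and by 0.22 without both A libraries. The fall of DNMT3A did not pass when any single one of the B to E libraries was left out, with an adjusted p of up to 0.0889.

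Of the TET enzymes, TET2 and TET3 rose and TET1 did not pass. TET2 (chr4:105145875-105279803), which is often mutated in blood cancers, stood at 48.7, 46.6, 47.6, 46.1 and 46.6 CPM in EFNB2 libraries A to E and at 40.4, 44.4, 43.1, 45.2 and 45.5 CPM in control libraries A to E. TET3 (chr2:73983631-74135498) stood at 27.8, 27.9, 27.2, 28.7 and 25.7 CPM and at 22.7, 25.2, 25.6, 24.9 and 24.8 CPM. For both genes all EFNB2 libraries lay above all control libraries, though the closest libraries differed by little. The log2 fold changes were 0.11 for TET2 (edgeR adjusted p = 0.0182) and 0.16 for TET3 (edgeR adjusted p = 0.00523). On the deposited normalized values TET2 did not pass (limma adjusted p = 0.0667). TET1 (chr10:68560337-68694487) had low levels, 2.81, 3.19, 3.34, 3.26 and 3.4 CPM against 1.8, 2.99, 3.1, 3.03 and 2.84 CPM. Its log2 fold change was 0.22 (SE 0.13, edgeR adjusted p = 0.181), and control A was the lowest library. Of 7 tested partners of DNA methylation, 4 rose (57.1%) and none fell, against 22.8% and 22.6% of all tested genes. In either direction 57.1% passed, against 45.4% of all tested genes. The median of the list was 0.08 on the log2 scale. UHRF1, which brings DNMT1 to newly replicated DNA, rose by 0.29, MBD4, a glycosylase, by 0.13, and TDG, the glycosylase that removes oxidised methylcytosine, by 0.11 on the log2 scale.

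EZH2 and EZH1 are the alternative catalytic subunits of Polycomb repressive complex PRC2, which methylates H3K27, a mark of silent genes. EZH2 (chr7:148807383-148884291) stood at 115, 126, 127, 128 and 122 CPM in EFNB2 libraries A to E and at 102, 96.3, 91.2, 93.6 and 94 CPM in control libraries A to E. All EFNB2 libraries lay above all control libraries, and the rise was 1.29-fold, or 0.37 on the log2 scale (SE 0.03, edgeR adjusted p = 4.66e-07). EZH1 (chr17:42700275-42745040) stood at 88, 98.5, 102, 93.8 and 99.2 CPM and at 102, 95.6, 89.3, 88.3 and 93 CPM. The groups overlapped and the log2 fold change was 0.04 (SE 0.04, edgeR adjusted p = 0.458). Without both A libraries it was 0.10 (edgeR adjusted p = 0.00343). Of 9 tested PRC2 partners, 4 rose and 2 fell, against 22.8% and 22.6% of all tested genes. PHF19, a subunit that guides PRC2 to chromatin, rose by 0.35, EED, a core subunit, by 0.20 and PHF1 by 0.19 on the log2 scale, while JARID2, a cofactor of the complex, fell by 0.29 and the core subunit SUZ12 fell by 0.09.

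Most markers of proliferating cells moved in the same direction as EZH2, DNMT1 and UHRF1. Among 16 such genes there were 13 rises and 0 falls, and the median of their log2 fold changes was 0.37. Of all tested genes 22.8% rose and 22.6% fell. MCM2, MCM5 and TYMS did not pass, with log2 fold changes of 0.05, -0.02 and 0.04. The summed level of the 16 genes was 4280 to 4650 CPM in EFNB2 libraries and 3680 to 4110 CPM in control libraries. CCNA2, the S and G2 phase cyclin, rose by 0.50, the mitotic kinase gene PLK1 by 0.45 and the mitotic cyclin gene CCNB1 by 0.43 on the log2 scale. The part of these genes in the changes of EZH2, DNMT1, SUV39H1 and KMT5A was not tested.

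**Figure D2:**
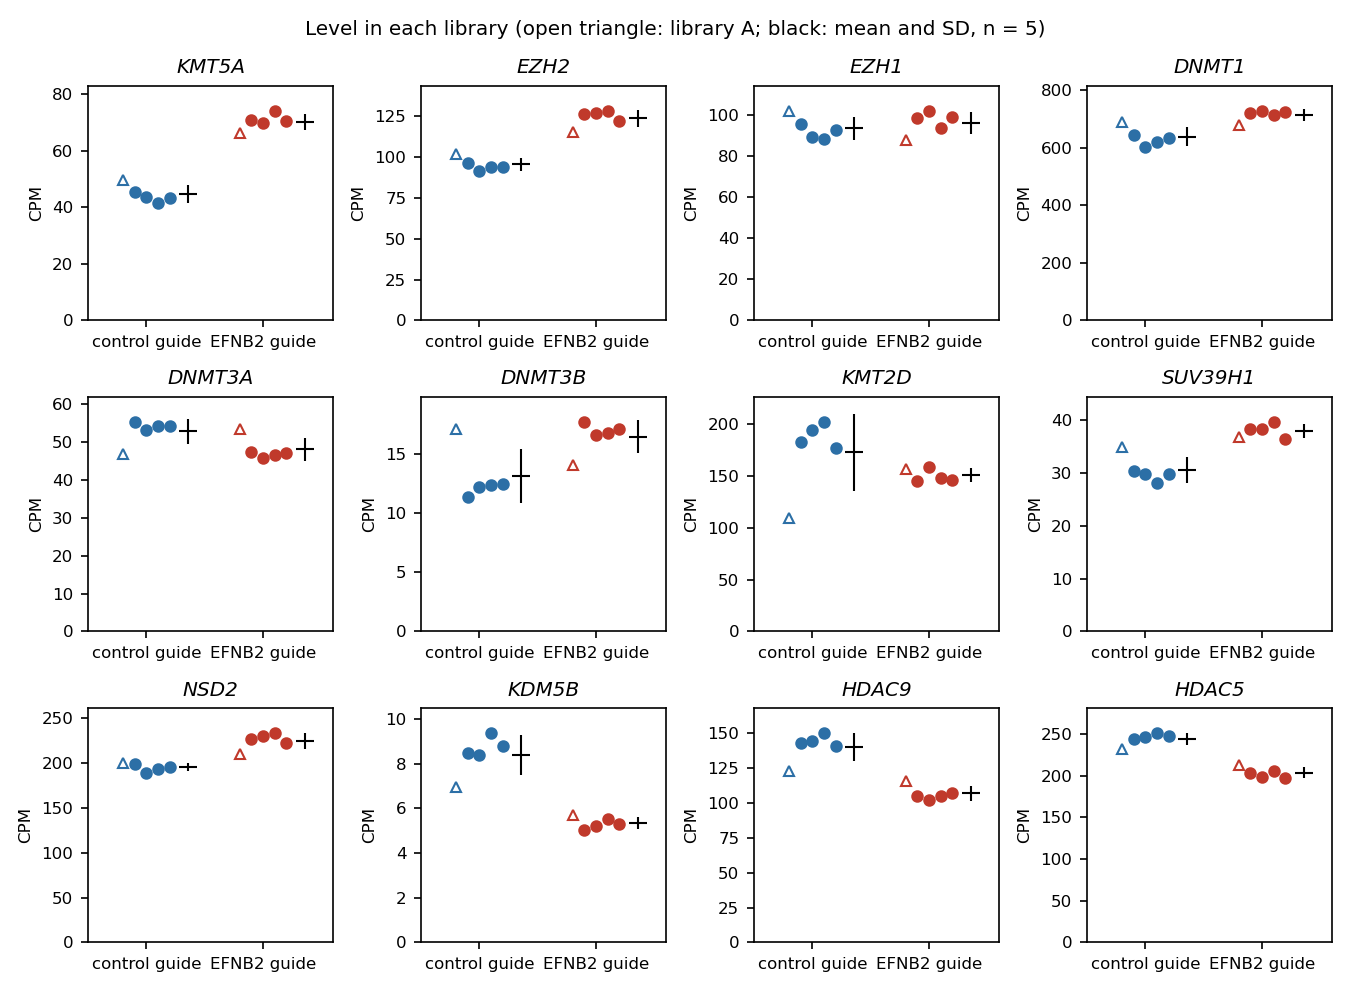
CPM in each library for 12 members, control guide in blue and EFNB2 guide in red, with the mean and SD in black (n = 5 per guide), and axes that start at 0. The open triangles, library A of each guide, lie between the other libraries of the 2 guides for KMT5A and EZH2, change places in DNMT3A, and control A is far below the rest for KMT2D, at 109 CPM.

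KMT5A (chr12:123384132-123409353), the only enzyme of the set that places a single methyl group on H4K20, a mark that comes and goes with the cell cycle, rose most. It stood at 66.1, 70.8, 69.7, 74 and 70.5 CPM in EFNB2 libraries A to E and at 49.6, 45.5, 43.5, 41.6 and 43.4 CPM in control libraries A to E. No library of either guide came near the other group, and the rise was 1.57-fold, or 0.65 on the log2 scale (SE 0.04, edgeR adjusted p = 1.02e-08). KMT5B and KMT5C, which add further methyl groups to H4K20, did not pass, with log2 fold changes of -0.04 and 0.01. Without both A libraries KMT5B passed, at -0.09 (edgeR adjusted p = 0.0163). Summed over the 3 genes, the level was 111.17 ± 2.25 CPM against 86.232 ± 2.59 CPM (SD, n = 5), without overlap.

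Among H3K9 methyltransferases SUV39H1 rose and the other 3 tested members did not pass. SUV39H1 (chrX:48695554-48709016) stood at 36.7, 38.3, 38.3, 39.6 and 36.4 CPM with the EFNB2 guide and at 34.8, 30.4, 29.8, 28.1 and 29.8 CPM with the control guide. The groups did not overlap, with control A closest to the EFNB2 libraries, and the log2 fold change was 0.31 (SE 0.05, edgeR adjusted p = 9.45e-05). SUV39H2, its close relative, had a log2 fold change of 0.04, EHMT1 of 0.03 and EHMT2 of -0.01.

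Among H3K36 methyltransferases NSD2 rose and NSD1 fell. NSD2 (chr4:1871393-1982192), which is switched on by a chromosome translocation in a subset of myelomas, stood at 210, 227, 230, 233 and 222 CPM with the EFNB2 guide and at 200, 199, 189, 193 and 195 CPM with the control guide. All EFNB2 libraries were higher than all control libraries, and the log2 fold change was 0.20 (SE 0.03, edgeR adjusted p = 4.48e-05). NSD1 (chr5:177131798-177300213), its paralog, stood at 95.3, 83, 86.2, 80.9 and 83.4 CPM and at 82, 102, 103, 106 and 100 CPM. Control A was the only control library within the EFNB2 range, and the log2 fold change was -0.20 (SE 0.06, edgeR adjusted p = 0.0124), or -0.30 without both A libraries. NSD3, with a log2 fold change of 0.01, and SETD2, the enzyme that trimethylates H3K36 along transcribed genes, with -0.07, did not pass. Without both A libraries SETD2 passed, at -0.09 (edgeR adjusted p = 0.00225).

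H3K4 methylation marks promoters and enhancers. Of its 8 writers 4 rose (50%) and none fell, against 22.8% and 22.6% of all tested genes. In either direction 50% passed, against 45.4% of all tested genes. SETD1B (chr12:121790155-121832656) and SETD1A, catalytic subunits of the COMPASS complexes at promoters, both rose. SETD1B stood at 70.3, 73, 71.3, 67.4 and 68.2 CPM in EFNB2 libraries A to E and at 50.9, 54.1, 49.4, 53 and 53.3 CPM in control libraries A to E. The groups were far apart, and the rise was 1.34-fold, or 0.43 on the log2 scale (SE 0.03, edgeR adjusted p = 4.25e-08). SETD1A and KMT2B each rose by 0.17, and KMT2E, whose SET domain is not known as an active methyltransferase, by 0.08 on the log2 scale. On the deposited normalized values KMT2E did not pass (limma adjusted p = 0.0762). The large enhancer and promoter methyltransferases KMT2A, KMT2C and KMT2D did not pass, and this rested on control A. KMT2D stood at 157, 145, 159, 148 and 146 CPM in EFNB2 libraries A to E, at 109 CPM in control A and at 183, 194, 202 and 177 CPM in control B to E. Without control A, KMT2D fell by 0.32 on the log2 scale (edgeR adjusted p = 8.07e-07), KMT2A by 0.22 (edgeR adjusted p = 0.000487) and KMT2C by 0.11 (edgeR adjusted p = 0.0402), while no other single library, when left out, made any of these pass. With no filter on low counts KMT2D passed too (edgeR adjusted p = 0.0286). These genes have at least 10 kb of exon, counted over all their transcripts, and control A tended to be low in such genes. Its median deviation from the other control libraries was -0.11 on the log2 scale over the 29 members with at least 10 kb of exon and 0.03 over the other 54. Over the 1353 tested genes of that length with a mean log2 CPM of 1 or more it was -0.07, and over the 10610 shorter ones -0.02. The part of exon or transcript length in these values was not tested. Of 9 tested COMPASS partners 4 rose and 1 fell, against 22.8% and 22.6% of all tested genes. PAXIP1 rose by 0.32, HCFC1 by 0.13 and CXXC1 by 0.11 on the log2 scale, and DPY30 fell by 0.16.

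KMT5A, SETD1B and KDM2B lie close together on the distal long arm of chromosome 12, as does SIRT4, and their neighbours were higher too. Of 87 other tested genes that start within 5 Mb of KMT5A, 73 rose and 2 fell, and their median on the log2 scale was 0.32. For SETD1B the neighbours numbered 97, of which 78 rose and 6 fell, with a median of 0.32, and for KDM2B 98, of which 78 rose and 6 fell, with a median of 0.31. KMT5A lay above 75 of its 87 neighbours, SETD1B above 72 of 97 and KDM2B above 54 of 98. SIRT4, a mitochondrial sirtuin of low level, had a log2 fold change of 0.17 (edgeR adjusted p = 0.322) and lay above 23 of 99. Within 10 Mb of KMT5A, leaving out the members, 99 of 124 tested genes rose and 6 fell, while on the rest of chromosome 12 129 of 613 rose and 180 fell, with a median of -0.02. Around every other tested member the median of the neighbours lay between -0.11 and 0.11. Without the 4 members of this region, 21 rose (26.6%) and 19 fell (24.1%) of 79, against 22.8% and 22.6% of all tested genes. The part of the region in the rises of KMT5A, SETD1B and KDM2B was not tested, and this region was picked out after its values were known.

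**Figure D3:**
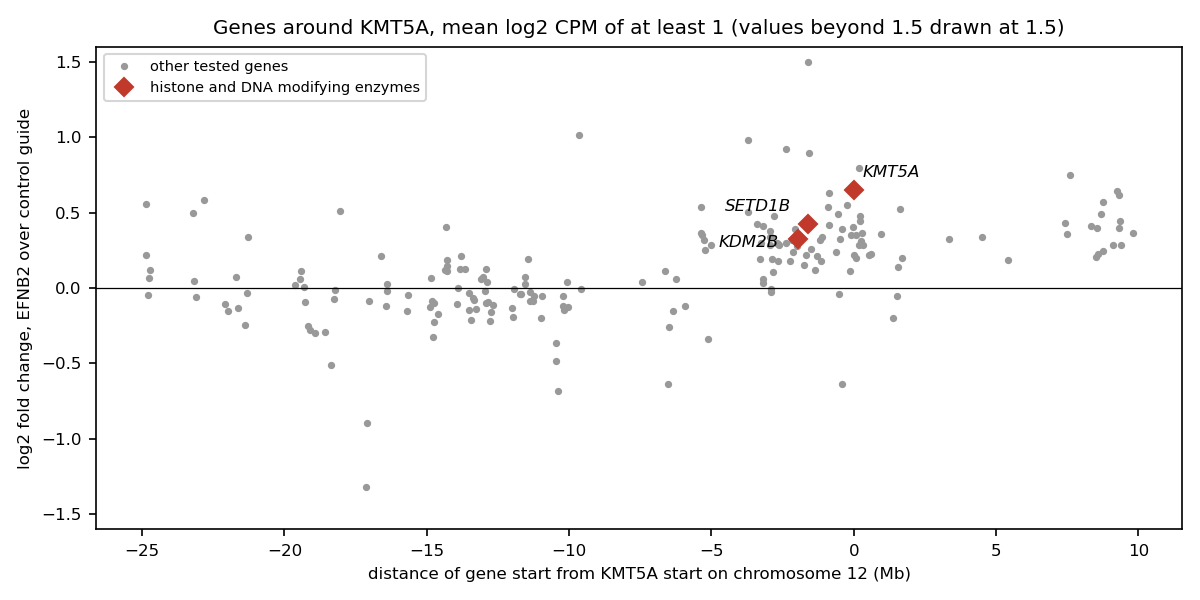
Log2 fold change of tested genes in the part of chromosome 12 around KMT5A, against the distance of their start from that of KMT5A in Mb. Only genes whose mean log2 CPM was 1 or more are drawn, with values beyond 1.5 drawn at 1.5, and the rest of the chromosome is not shown. Red diamonds are KMT5A (0.65), SETD1B (0.43) and KDM2B (0.33), and the grey points around them lie mostly above 0. The median over all tested neighbours within 5 Mb of KMT5A, whatever their level, was 0.32.

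Of the other SET domain proteins, SETD5 rose by 0.12 on the log2 scale and SETD9 fell. SETD9 (chr5:56909260-56928900), a little studied protein, stood at 12.4, 12.6, 12.7, 11.3 and 12.7 CPM with the EFNB2 guide and at 12.9, 13.7, 14, 13.1 and 14.4 CPM with the control guide. The groups came within 0.2 CPM of each other without overlap, and the fall was 0.15 on the log2 scale (SE 0.05, edgeR adjusted p = 0.022). It did not pass without EFNB2 D, control C or control E, with an adjusted p of up to 0.0655. Of the 7 arginine methyltransferases tested, PRMT7 rose by 0.15 and PRMT3, PRMT5 and PRMT9 fell. That made 14.3% higher and 42.9% lower, against 22.8% and 22.6% of all tested genes. PRMT3 (chr11:20387716-20509338), which methylates a ribosomal protein, fell most, with 20.6, 19.7, 21.9, 21.2 and 21.8 CPM against 23.6, 27.2, 27.6, 25.7 and 26.4 CPM. All its EFNB2 libraries were below all control libraries, with a log2 fold change of -0.31 (SE 0.05, edgeR adjusted p = 5.04e-05). PRMT1 and PRMT5, the main sources of asymmetric and symmetric arginine methylation, were the most abundant of the class, at 41.3 and 42.2 CPM per kb of exon with the EFNB2 guide. PRMT1 had a log2 fold change of 0.01, and the fall of PRMT5 by 0.07 did not pass when any single B to E library was left out, with an adjusted p of up to 0.162. The fall of PRMT9 by 0.11 did not pass without EFNB2 A to D or control B, D or E, each left out alone, with an adjusted p of up to 0.104.

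Of the 8 acetyltransferases tested 2 rose and 2 fell, close to the 22.8% and 22.6% of all genes. KAT5, the catalytic subunit of the NuA4 complex also called TIP60, rose by 0.16 and KAT7, which acetylates histone H3 and H4 at replication origins and promoters, by 0.08 on the log2 scale. KAT5 shares 38.6% of its exon bases with RNASEH2C and KAT7 2.5% with FAM117A, both on the opposite strand. KAT14 (chr20:18137153-18188035), a subunit of the ATAC acetyltransferase complex, stood at 33, 30.9, 30.5, 31.7 and 32.5 CPM with the EFNB2 guide and at 34.8, 34.4, 35.6, 36.3 and 36.1 CPM with the control guide. The groups did not overlap, and its log2 fold change was -0.16 (SE 0.03, edgeR adjusted p = 0.000765). KAT6B fell by 0.08 and did not pass without EFNB2 B to E or control B, D or E, each left out alone, with an adjusted p of up to 0.104. KAT2A, which was among the most abundant members at 39.5 CPM per kb of exon, had a log2 fold change of 0.10 that did not pass. Of single libraries left out, control A was the only one without which it passed (0.15, edgeR adjusted p = 0.000963), and with no filter on low counts it passed as well (edgeR adjusted p = 0.0478). Of 19 tested partners of acetyltransferases 9 rose (47.4%) and 2 fell (10.5%), against 22.8% and 22.6% of all tested genes. JADE1, a scaffold of the KAT7 complex, was up by 0.32 and JADE3 and TADA2B each by 0.15, while JADE2 was down at -0.19 and ING4 at -0.13.

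Among 18 lysine demethylases 4 rose (22.2%) and 6 fell (33.3%), against 22.8% and 22.6% of all tested genes. KDM5B (chr1:202724495-202808421), which removes methyl groups from H3K4, fell most of all members. It stood at 5.68, 5.04, 5.2, 5.53 and 5.3 CPM in EFNB2 libraries A to E and at 6.96, 8.47, 8.37, 9.36 and 8.8 CPM in control libraries A to E. All EFNB2 libraries lay below all control libraries, with control A the closest, and the fold was 0.638, or -0.65 on the log2 scale (SE 0.08, edgeR adjusted p = 4.64e-06). KDM5B was also among the members with the lowest level per kb of exon, 0.207 CPM per kb with the EFNB2 guide and 0.324 with the control guide. Its relatives KDM5A and KDM5C, far more abundant at 5.12 and 18.6 CPM per kb with the EFNB2 guide, had log2 fold changes of -0.01 and 0.02 and did not pass, and KDM5D had one of 0.10. KDM5D passed, but not without EFNB2 B, C or D or control C, D or E, each left out alone, with an adjusted p of up to 0.0702.

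KDM2B (chr12:121408461-121582279), which recruits a variant of Polycomb complex PRC1 to CpG islands, rose. It stood at 95.6, 86.8, 85, 85.1 and 90.8 CPM with the EFNB2 guide and at 70.4, 70.9, 72.4, 70.5 and 69 CPM with the control guide. The groups were well separated, with a log2 fold change of 0.33 (SE 0.03, edgeR adjusted p = 9.61e-07), whereas its paralog KDM2A fell by 0.11. KDM2B shares 3.2% of its exon bases with RNF34 on the opposite strand, a gene with more counts. The H3K27 demethylases are KDM6A, a tumour suppressor in myeloma, and KDM6B. KDM6B (chr17:7834217-7854796) rose from a low level, with 8.74, 9.1, 8.55, 8.07 and 8.52 CPM against 6.92, 7.43, 6.93, 6.61 and 7.91 CPM. The highest control library came close to the lowest EFNB2 library without overlap, and the log2 fold change was 0.26 (SE 0.06, edgeR adjusted p = 0.00202). KDM6A (chrX:44873188-45112779) stood at 39.1, 39, 40.4, 39.2 and 41 CPM against 40.6, 38.6, 38.8, 39.7 and 39 CPM. Its groups overlapped, and its log2 fold change was 0.01 (SE 0.03, edgeR adjusted p = 0.712).

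The H3K9 demethylases moved both ways. KDM4B rose by 0.08, KDM3A fell by 0.14 and KDM4C fell by 0.12 on the log2 scale, each without overlap between the guides. KDM4B did not pass with no filter on low counts (edgeR adjusted p = 0.0608) or on the deposited normalized values (limma adjusted p = 0.101). KDM4D (chr11:94973709-94999519) was low, with 3.16, 3.32, 2.51, 3.09 and 2.83 CPM against 4.03, 3.28, 3.48, 3.4 and 4.23 CPM. The groups overlapped slightly, and the log2 fold change of -0.30 (SE 0.10, edgeR adjusted p = 0.0213) did not pass without EFNB2 C, EFNB2 E or control E, with an adjusted p of up to 0.07. KDM1B (chr6:18155422-18223854), a flavin-dependent H3K4 demethylase, stood at 16.6, 14.2, 12.9, 14.3 and 14.4 CPM against 14.7, 17.7, 16.5, 16.9 and 15.5 CPM. Each A library lay within the range of the other guide. Its log2 fold change was -0.17 (SE 0.06, edgeR adjusted p = 0.0467) and -0.25 without both A libraries. The fall of KDM1B did not pass when any single B to E library was left out, with an adjusted p of up to 0.139.

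The zinc-dependent deacetylases, the targets of the deacetylase inhibitors used in myeloma, were lower as a sum with the EFNB2 guide. Of 11 tested, 2 rose (18.2%) and 3 fell (27.3%), against 22.8% and 22.6% of all tested genes. Their summed level was 1006.8, 1011.9, 1001.7, 1011.3 and 1012.1 CPM in EFNB2 libraries A to E and 1070.2, 1070.9, 1076.6, 1073.8 and 1079 CPM in control libraries A to E. The groups were far apart beside their spread, at 1008.8 ± 4.5 against 1074.1 ± 3.76 CPM (SD, n = 5), a change of -6.08%. It was -6.22% with RLE scaling and -5.02% with library totals alone, without overlap in either. Without HDAC5 and HDAC9, left out after their values were seen, the sum of the other 9 was 698.29 ± 12 against 689.71 ± 15.5 CPM, and the groups overlapped. Both genes had fallen, so leaving them out had to move the change upward.

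The class IIa deacetylases HDAC9 and HDAC5, which shuttle between nucleus and cytoplasm, fell. HDAC9 (chr7:18086825-19002416) stood at 116, 105, 102, 105 and 107 CPM with the EFNB2 guide and at 123, 143, 144, 150 and 141 CPM with the control guide. The A libraries were the closest of the 2 groups, and the log2 fold change was -0.39 (SE 0.05, edgeR adjusted p = 5.57e-06). HDAC5 (chr17:44076753-44123641) stood at 213, 203, 198, 206 and 197 CPM against 232, 244, 246, 251 and 248 CPM. Its groups did not overlap, and the log2 fold change was -0.26 (SE 0.03, edgeR adjusted p = 2.28e-06). HDAC4 (chr2:239048168-239401649), of the same class, rose from a low level, with 13.5, 13.6, 14.6, 14 and 13.8 CPM against 11, 12.4, 12.9, 12.2 and 12.7 CPM. Its groups did not overlap, with a log2 fold change of 0.18 (SE 0.05, edgeR adjusted p = 0.00684). HDAC7, the fourth class IIa enzyme and the most abundant deacetylase per kb of exon with the EFNB2 guide at 30.7 CPM per kb, had a log2 fold change of 0.09 and did not pass, but it did without EFNB2 A, without control A, and with library totals alone, limma-voom and either other filter.

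Of the class I deacetylases, which sit in nuclear corepressor complexes, only HDAC2 passed. HDAC2 (chr6:113933028-113971148) stood at 134, 126, 124, 132 and 130 CPM with the EFNB2 guide and at 138, 143, 147, 144 and 141 CPM with the control guide. The groups did not overlap, and the log2 fold change was -0.14 (SE 0.03, edgeR adjusted p = 0.000659). HDAC1 (chr1:32292083-32333626) stood at 117, 114, 113, 114 and 115 CPM against 118, 116, 120, 118 and 116 CPM, with a log2 fold change of -0.03 (SE 0.02, edgeR adjusted p = 0.214). HDAC3 (chr5:141620881-141636849) stood at 60, 63, 62.2, 62.3 and 62 CPM against 65.2, 61.8, 64.3, 64.9 and 63.9 CPM, with a log2 fold change of -0.05 (SE 0.03, edgeR adjusted p = 0.135). Both overlapped between guides, and HDAC8, the remaining class I enzyme, had a log2 fold change of -0.02. HDAC6, the cytoplasmic tubulin deacetylase, rose by 0.17. HDAC10 and HDAC11 were among the lowest members and did not pass, and 55.8% of the exon bases of HDAC10 are shared with MAPK12 on the same strand, so its counts are uncertain. Of 18 tested partners in deacetylase complexes 10 rose and 5 fell, against 22.8% and 22.6% of all tested genes. MTA2 rose by 0.23 and SIN3A by 0.21 on the log2 scale. TBL1X, a subunit of corepressor complexes, fell by 0.95 to 41.9 CPM from 81 CPM, MTA3 by 0.12 and NCOR1 by 0.12. CHD3, a remodeller of the NuRD complex that was low in both groups, had the largest log2 fold change of the list, 3.63, at 2.46 CPM against 0.195 CPM, and is named because of it.

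The sirtuins, which use NAD to remove acetyl and other acyl groups, also moved both ways. Of 7 tested, 2 were higher and 2 lower (28.6% each), against 22.8% and 22.6% of all tested genes. SIRT7 (chr17:81911939-81918176), a nucleolar enzyme, stood at 24.6, 30.1, 28.2, 28.9 and 28.2 CPM in EFNB2 libraries A to E and at 27.8, 22.4, 20.8, 19.5 and 22 CPM in control libraries A to E. The groups overlapped only through the A libraries, and the log2 fold change was 0.32 (SE 0.08, edgeR adjusted p = 0.00413), or 0.45 without both A libraries. SIRT7 shares 1.7% of its exon bases with MAFG on the same strand, a gene with more counts. SIRT6, which deacetylates histone H3 in the nucleus, rose by 0.09, but did not pass with no filter on low counts (edgeR adjusted p = 0.0645) or on the deposited normalized values (limma adjusted p = 0.0599). SIRT3 (chr11:215030-236931), the main mitochondrial deacetylase, stood at 23.1, 22.6, 21.8, 22.3 and 22.1 CPM against 26.8, 25.3, 26.7, 25.2 and 26.2 CPM. Its groups did not overlap, and its log2 fold change was -0.22 (SE 0.03, edgeR adjusted p = 7e-05). SIRT3 shares 6.1% of its exon bases with PSMD13 on the opposite strand, a gene with more counts, and the strand setting of the counting is not given in the sources used here. SIRT5, also mitochondrial, fell by 0.14 and did not pass without EFNB2 C or without control B, with an adjusted p of up to 0.0568. SIRT1 and SIRT2 had log2 fold changes of 0.07 and 0.03 and did not pass.

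Added up over members, writers were higher with the EFNB2 guide and erasers slightly lower. The summed level of the 44 tested writers was 4576.4 ± 38.3 CPM in the EFNB2 libraries against 4356.5 ± 67.3 CPM in the control libraries (SD, n = 5), a change of 5.05% without overlap. That of the 39 erasers was 2485.7 ± 9.66 against 2538.3 ± 19.1 CPM, a change of -2.07% without overlap, but with library totals alone the change was -0.968% and the groups overlapped. Without HDAC5 and HDAC9 the erasers came to 2175.2 ± 8.79 against 2153.9 ± 12.1 CPM, higher by 0.989% and with overlap. These genes were picked after their falls were seen, so leaving them out had to move the change upward. The ratio of writers to erasers within a library does not depend on scaling. It was 1.8202, 1.8354, 1.8772, 1.8342 and 1.8388 in EFNB2 libraries A to E and 1.7082, 1.7507, 1.6912, 1.7194 and 1.7119 in control libraries A to E. All EFNB2 libraries lay above all control libraries, by 7.28% on average. Abundant members weigh most in such sums. Without HDAC5 and HDAC9 the ratio was 2.1039 ± 0.0184 against 2.0226 ± 0.031, higher by 4.02% and without overlap. Without DNMT1 the ratio was 1.5541 ± 0.0159 against 1.4646 ± 0.0232, while without the members on distal chromosome 12 it was 1.852 ± 0.02 against 1.7271 ± 0.0216, both without overlap. These sums carry no test.

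**Figure D4:**
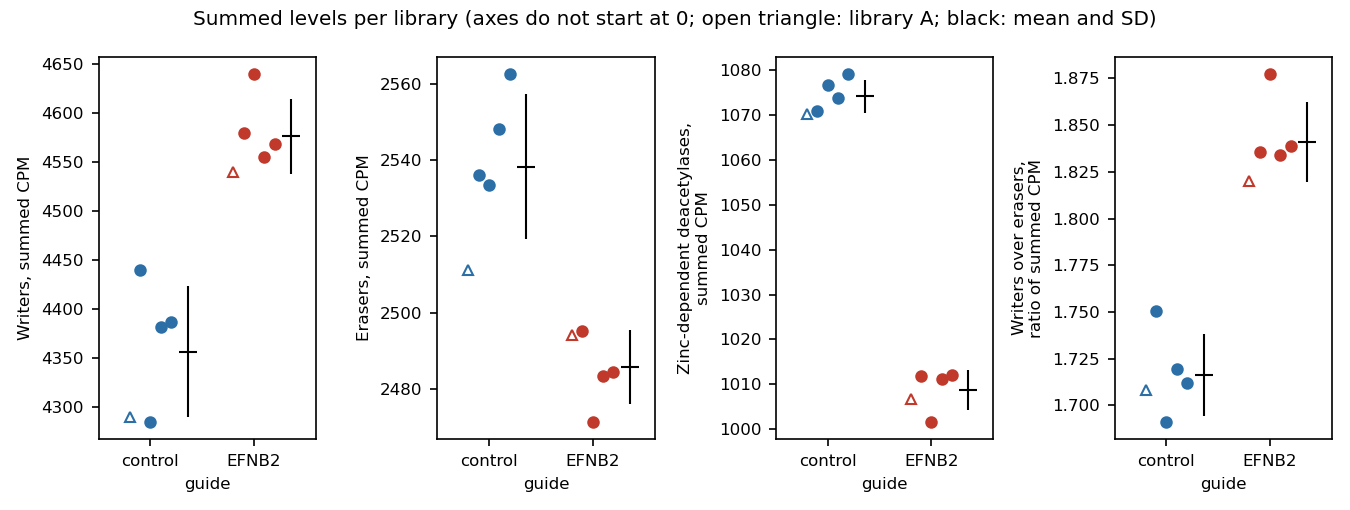
Summed CPM of writers, erasers and zinc-dependent deacetylases, and the ratio of writers to erasers, in each library, with the mean and SD in black (n = 5 per guide), triangles for the A libraries and axes that do not start at 0. In each panel the EFNB2 and control libraries do not overlap, with deacetylases at 1001.7 to 1012.1 CPM against 1070.2 to 1079 CPM and the ratio at 1.8202 to 1.8772 against 1.6912 to 1.7507.

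The balance between related enzymes was taken as the log2 ratio of their CPM within each library, for 28 pairs. In 10 pairs (35.7%) the guides did not overlap, a share close to the 33.7% of single members and the 30.3% of all tested genes. Among tested genes with a mean log2 CPM of 1 or more that share was 36.8%. EZH2 over EZH1 was 0.39, 0.35, 0.31, 0.45 and 0.3 in EFNB2 libraries A to E and 0.01, 0.01, 0.03, 0.08 and 0.01 in control libraries A to E. The balance thus lay further toward EZH2 in every EFNB2 library than in any control library. SUV39H2 over SUV39H1 was -0.20 ± 0.02 against 0.07 ± 0.12, and SETD1B over SETD1A was -1.15 ± 0.02 against -1.41 ± 0.09 (SD, n = 5). Among demethylases, KDM5B over KDM5A was -3.53 ± 0.06 against -2.89 ± 0.06, KDM2B over KDM2A was -1.47 ± 0.07 against -1.91 ± 0.06, KDM6B over KDM6A was -2.21 ± 0.08 against -2.46 ± 0.12 and KDM4C over KDM4A was 0.40 ± 0.03 against 0.55 ± 0.06. Among deacetylases, HDAC9 over HDAC4 was 2.94 ± 0.11 against 3.52 ± 0.06, HDAC5 over HDAC4 was 3.87 ± 0.08 against 4.32 ± 0.06 and HDAC2 over HDAC1 was 0.17 ± 0.03 against 0.28 ± 0.03. These shifts show unequal change within pairs and not which gene changed. DNMT3B over DNMT3A was -1.55 ± 0.21 against -2.03 ± 0.32 and overlapped through the A libraries, which stood at -1.93 in EFNB2 A and -1.46 in control A. The other EFNB2 libraries lay between -1.47 and -1.42 and the other control libraries between -2.28 and -2.12. NSD2 over NSD1 overlapped in the same way, with 1.14 in EFNB2 A and 1.28 in control A.

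**Figure D5:**
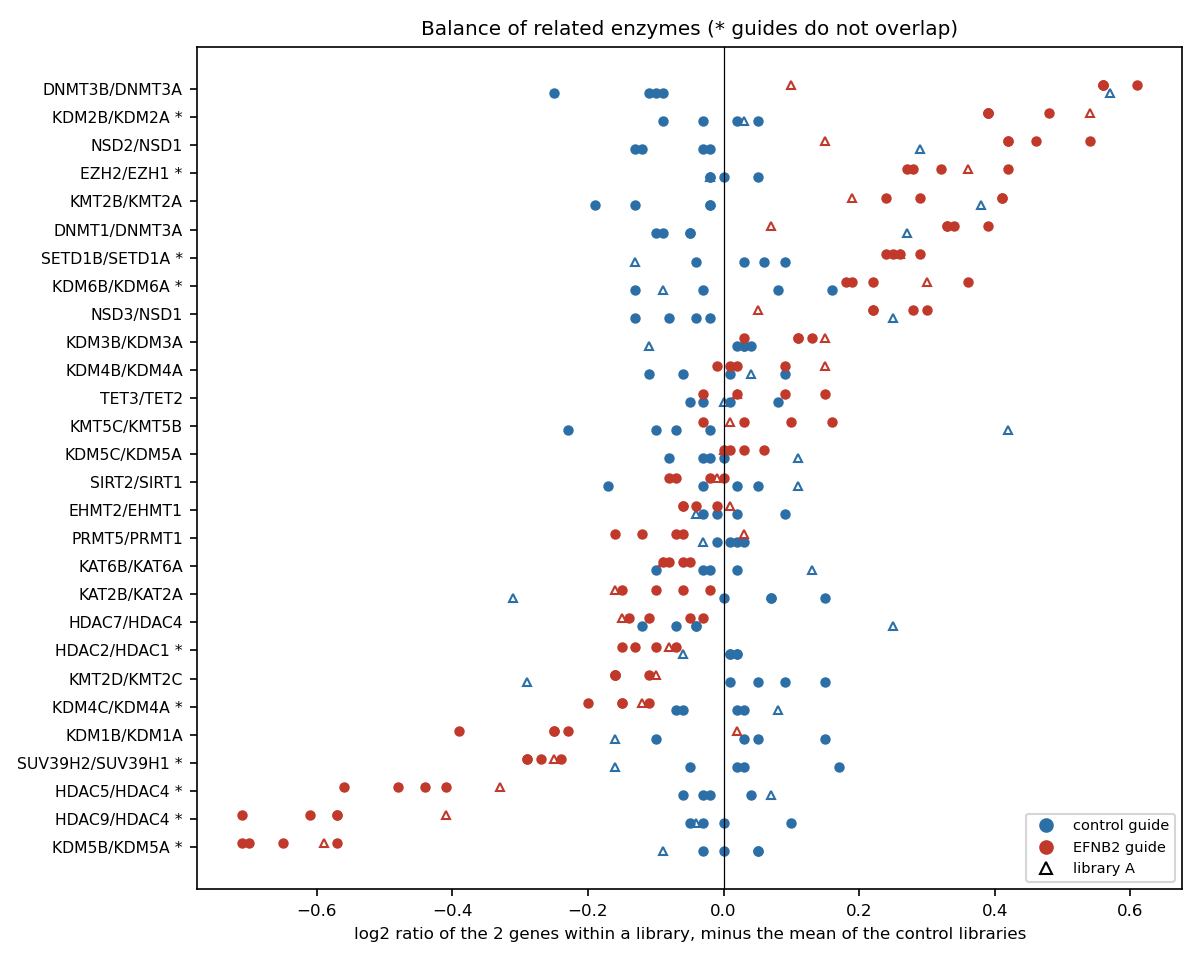
Log2 ratio of 2 related genes within each library for 28 pairs, less the mean of the control libraries, control guide in blue, EFNB2 guide in red and triangles for library A, with an asterisk on the 10 pairs whose guides do not overlap. KDM5B over KDM5A and HDAC9 over HDAC4 lie farthest to the left, and in DNMT3B over DNMT3A the 2 triangles have changed sides.

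Among 22 tested modifying enzymes whose names the family pattern does not catch, 5 rose (22.7%) and 7 fell (31.8%). Their median was -0.03 on the log2 scale. Of all tested genes 22.8% rose and 22.6% fell, and of those with a mean log2 CPM of 1 or more 25.4% and 29%. DOT1L, the H3K79 methyltransferase, rose by 0.38, SMYD2 by 0.21 and PRDM2 by 0.13 on the log2 scale. RIOX2, a ribosomal oxygenase with a demethylase-like domain, fell by 0.55, CARM1, an arginine methyltransferase, by 0.17 and NCOA3 by 0.14. The paralogous acetyltransferases CREBBP and EP300 did not pass, with log2 fold changes of 0.08 and -0.06. Of 13 tested enzymes that supply the methyl donor and the cofactors, 3 were higher (23.1%) and 6 lower (46.2%), against the same shares of all tested genes. Their median was -0.09 on the log2 scale, and the lean toward falls was not tested. NAMPT, which makes the NAD that sirtuins use, rose by 0.26, ACSS2, a source of acetyl-CoA, by 0.17 and MAT2A, which makes the methyl donor, by 0.13. IDH2, a mitochondrial source of the ketoglutarate used by demethylases and TET enzymes, fell by 0.23, AHCY, which clears the product of methylation, by 0.19 and MAT2B, the regulatory partner of MAT2A, by 0.18.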

How the data were processed

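The 10 libraries of U266 RNA, 5 per guide, were grouped by their titles. Per the labels, libraries were poly(A) selected, strand-specific and sequenced as read pairs. No role is stated for STAR 2.27a, Partek and DESeq2, which the submitters' processing notes list beside GRCh38. Which annotation was counted, and with which strand option, is not given in the sources used here. Raw counts per gene, deposited by the authors, were used throughout. The deposited normalized signal per gene equals the count plus 0.0001, times a constant per library (within 0.000497%), and served only as an alternative. Rows without a gene name held at most 7e-05% of counts and were left out.

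In R 4.3.3, edgeR 4.0.16 (filterByExpr, TMM, glmQLFit, glmQLFTest, guide as the only term) was fitted to all 17834 genes that passed the filter, and p-values were adjusted by Benjamini-Hochberg over all of them at a threshold of 0.05. A log2 fold change is EFNB2 guide over control guide, and its standard error is its size over the square root of F. CPM are counts over TMM-scaled totals, and 3 counts, the limit that a count of 0 allows, are 0.0537 to 0.0627 CPM, for counting error only. Exon lengths and shared exon bases are from GENCODE 29 (GRCh38), where all 85 members were found by name. Exon length counts every base that lies in an exon of any transcript of a gene, so it can exceed the length of each transcript. Gene positions, and the distances between genes, are from RefSeq. The steps were tested on simulated data.

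The family pattern that picks the members and the gene lists were chosen with earlier results of these data known. Values in every library are given for the EZH, DNMT and TET genes, KDM6A, KDM6B, NSD2 and HDAC1 to HDAC3, and for the 10 largest rises and 10 largest falls among called members whose mean log2 CPM was 1 or more, and per list at most 3 rises and 3 falls are named, of which some are not reported here. KMT2D, SIRT4, CREBBP, EP300, CHD3, MCM2, MCM5 and TYMS were added after their values were seen. Alternatives were RLE scaling, library totals alone, DESeq2 1.42.0, limma-voom (limma 3.58.1), no filter, at least 1 CPM in 5 libraries, the replicate letter as a block, log2(normalized value + 1) with limma-trend, each library left out in turn, both A libraries left out, immunoglobulin genes left out, an adjusted p under 0.01 and, added after seeing the data, the members of distal chromosome 12 left out.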

Additional observations from a re-analysis of the deposited data

Results flagged for a closer look

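In each guide's 5 libraries, the gap between the most extreme library and its nearest neighbour was compared with the range, for 30 members. In 7 of 60 groups that share was above Dixon's critical value of 0.71, and chance alone gives about 1 in 20 groups. In 6 of the 7 the library was an A library. For DNMT3A they were EFNB2 A at 53.4 CPM, against 45.9 to 47.3 in the other EFNB2 libraries, and control A at 47 CPM, against 53.3 to 55.3 in the other control libraries. Control A stood apart in DNMT3B at 17.1 CPM (others 11.4 to 12.5), in NSD1 at 82 CPM (others 100 to 106), in TET1 at 1.8 CPM (others 2.84 to 3.1) and in TET3 at 22.7 CPM (others 24.8 to 25.6). EFNB2 D stood apart in SETD9 at 11.3 CPM (others 12.4 to 12.7).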

How the results depend on the processing

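Over 20 other settings, 29 of the 43 members called kept their call in each and 0 reversed, and of the 40 that did not pass, 18 passed in some setting. The count of members that fell was 12 with the replicate block and 10 at an adjusted p under 0.01, and 12 to 26 when a library was left out. Writers that fell numbered 5 with library totals alone, 3 with the replicate block, 14 without both A libraries and 3 to 14 when a library was left out. Erasers that rose numbered 6 on the deposited normalized values. The median of the writers was 0 on those values, and that of the erasers was 0.03 with library totals alone and -0.01 on the deposited values. The deviations of same-lettered libraries correlated between -0.237 and -0.00303, with letter A at -0.237, and 0 of 5 letters matched their own best. These values give no sign of a pairing by letter, but they cannot exclude a shared batch, which the labels do not state. The replicate block was therefore used only here. With it 10 of the members called no longer passed, namely DNMT3A, KAT6B, KDM1B, KDM4B (adjusted p 0.0628), KDM5D, NSD1 (0.0556), PRMT5, PRMT9, SIRT5 and TET2 (0.0643). The median of all genes moved by at most 0.025 (log2) under any setting. Changes of sign touched only members near 0. With library totals alone EHMT2, KAT6A, KDM5A, PRMT2 and SETD6 were at 0.01. On the deposited values HDAC10, KAT2B, KDM5C, KDM6A, KMT5C, NSD3 and PRMT1 were at -0.01 and KDM4A at 0, and with at least 1 CPM in 5 libraries KAT6A, KDM5A and PRMT2 were at 0. Without both A libraries HDAC8 and KDM5C were at 0, KAT2B at -0.01, PRMT2 at 0.03, PRMT6 at -0.02 and SETD6 at 0.06. With a library left out, the values that changed sign ran from -0.02 to 0.01 for EHMT2, -0.09 to 0.09 for HDAC10, -0.04 to 0.01 for HDAC8, -0.02 to 0.03 for KAT2B, -0.05 to 0.03 for KAT6A and KDM5A, -0.11 to 0.03 for KMT2C, -0.03 to 0.07 for KMT5C, -0.02 to 0.02 for PRMT2 and -0.03 to 0.03 for SETD6. The causes were not tested. The lowest members (HDAC10, HDAC11, SIRT4, TET1) have the widest errors at this depth.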
